A study of Arabidopsis thaliana with 24 samples.

Results

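The transcripts described here are the 150 with the steepest peak in dry wild-type (WT) seed of *Arabidopsis thaliana*, out of 22746 non-control probe sets on the array. Each was scored in WT as the mean at 0 h minus the highest mean at any of the 3 later stages, on a scale of log2(intensity + 16), and the 150 highest scores were taken. WT scores of the members ran between 4.16 and 7.56, with a median of 4.95, against a median of 0.02 over all probe sets. Of the 150 members, 75 had 1 annotated gene, 5 had several and 70 were not listed in the annotation, so genes are named below for the 75 only. At the limit of the list, *AT2G19320* scored 4.17 and probe set 249326_at 4.165, while 248193_at just outside scored 4.163.

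Seed was collected from *Attim17-1* and from WT Col-0 plants, all in the Col-0 background, at 4 stages with 3 arrays in each of the 8 groups. The stages were dry seed after ripening (0 h), seed after 48 h at 4 °C in the dark on MS medium (48 h S, stratification), and seed after a further 6 h or 24 h of continuous light at 22 °C (6 h SL and 24 h SL). Each sample was 80 mg of whole seed, and the labels give the ripening time as 15 days in one place and 14 days in another. The sample descriptions call the 0 h *Attim17-1* samples dry seed and the 0 h WT samples freshly harvested seed, although their source names call both dry, so a difference in after-ripening cannot be told apart from genotype in any 0 h comparison. The 6 h SL WT samples are described as stratifying seed but titled and sourced as seed in light. TIM17 proteins belong to the channel that carries proteins across the inner mitochondrial membrane. The labels name the mutant without saying what kind of lesion it carries or how many lines were used, and the transcript of the targeted gene was not analysed here. They do not say whether the 3 arrays of a group came from separate seed lots, so p-values cover only the variation among arrays, part or all of which may be technical.

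A dry seed holds messenger RNA made while the seed matured and dried on the mother plant. Late embryogenesis abundant (LEA) proteins, small heat shock proteins and storage proteins are typical products of that period, and they are known for protecting cell contents during drying or feeding the seedling. Once the seed takes up water, many stored transcripts are degraded while new ones are made.

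Array medians rose with stage, at 19.6 to 20.8 intensity units at 0 h and 26.3 to 29.9 at 48 h S. They were 31.0 to 32.8 at 6 h SL and 35.4 to 36.4 at 24 h SL. Upper quartiles lay between 234 and 258. The root mean square deviation of an array from its group mean was 0.066 to 0.150 log2 units, and highest in replicate 1 of *Attim17-1* dry seed. Array controls for RNA integrity moved with stage: the 3′ minus 5′ difference of actin was 3.72 to 4.95 log2 units in dry *Attim17-1* seed and 4.02 to 4.90 in dry WT seed, and it was between 5.39 and 5.90 in all later groups. The ubiquitin control gave 0.39 to 0.43 in dry *Attim17-1* seed and 0.28 to 0.75 in dry WT seed, against 1.20 to 1.76 later. For GAPDH the dry-seed and later ranges overlapped. The part of these shifts, and of the rise in array medians, in the results was not tested.

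Although the members were picked on WT arrays alone, the same peak was present in *Attim17-1*. All 150 members fell between 0 h and each of the 3 later stages in *Attim17-1*, arrays that the choice of members did not use (limma, Benjamini-Hochberg adjusted p under 0.05 over all 22746 probe sets). Background rates were 32.9% of all probe sets called lower at 48 h S, 44.9% at 6 h SL and 53.6% at 24 h SL, and 28.4% were lower at all 3 stages. Without replicate 1 of *Attim17-1* dry seed, all 150 were still called lower at each stage and 133 were still shared with the *Attim17-1* list described next. The size of the fall set the members apart more than its call did. The median change of the members in *Attim17-1* to 48 h S was -5.18 log2 units, where the median over all probe sets was -0.02. A fall of at least 4 log2 units was found for 142 members at 48 h S, against 1.06% of all probe sets, and for 140 members at 6 h SL (1.31%) and 141 at 24 h SL (2.04%).

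Members were abundant in dry seed and weak afterwards. The median intensity of the members in *Attim17-1* was 3566 at 0 h, 57.8 at 48 h S, 39.2 at 6 h SL and 13.4 at 24 h SL, and in WT it was 3598, 73.7, 36.3 and 11.5 at the same stages. In dry seed 116 members exceeded 1000 units in *Attim17-1* and 117 in WT, a level that 9.0% of all probe sets exceeded in *Attim17-1* and 8.96% in WT. By 24 h SL, 118 members in *Attim17-1* and 121 in WT were under 64 units, as were 55.5% of all probe sets in *Attim17-1* and 55.6% in WT. No detection calls came with the values, so how far such low levels stand above background is not known. The rule used the WT means, so the WT levels and counts given here were set in part by the choice of members. By 48 h S the median member had completed 91.8% of its log2 fall to 24 h SL in *Attim17-1*, with a range of 47.6% to 133.5% over members. The choice of members required a large fall by 48 h S in WT, so an early fall in *Attim17-1* is described here and not tested against other transcripts.

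**Figure D1:**
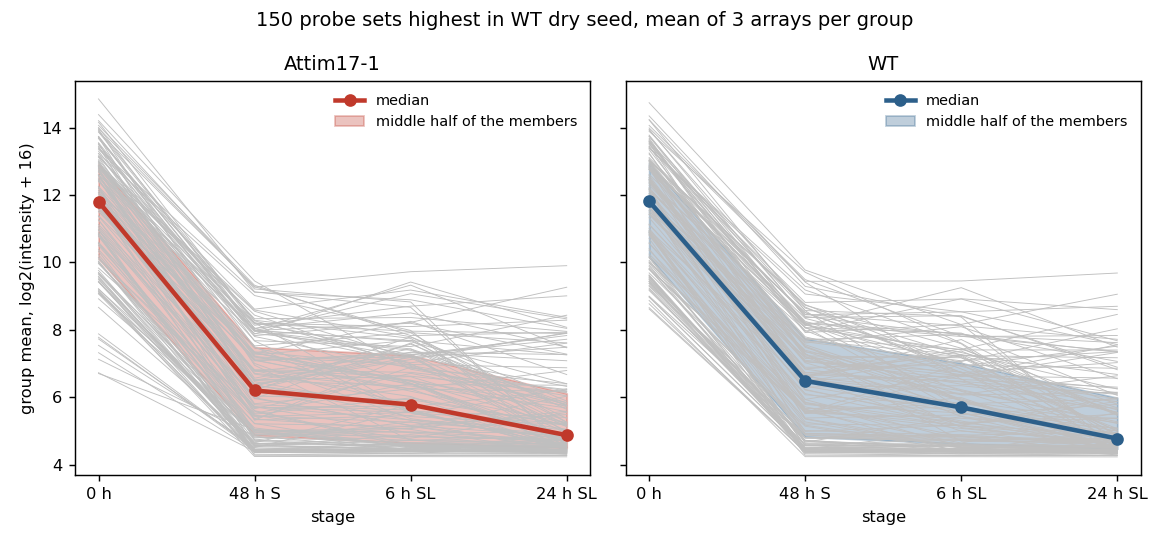
Group means of log2(intensity + 16) for the 150 members at the 4 stages in *Attim17-1* (left) and WT (right), with a grey line per member, the coloured line at the median and the band between the quartiles. The median member stands at 3566 units in dry *Attim17-1* seed and 3598 in dry WT seed, and at 57.8 and 73.7 units after stratification.

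Scored the same way, 133 of the 150 members were also among the 150 highest scores in *Attim17-1*, so the list is not particular to WT. The median score of the members was 4.96 in *Attim17-1* and 4.95 in WT. In *Attim17-1* a score of at least 4 was reached by 139 members, against 0.743% of all probe sets. Of the 17 members outside the *Attim17-1* list, 10 belonged to a set of 11 whose dry-seed level was lower in *Attim17-1*, which is described further on.

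**Figure D2:**
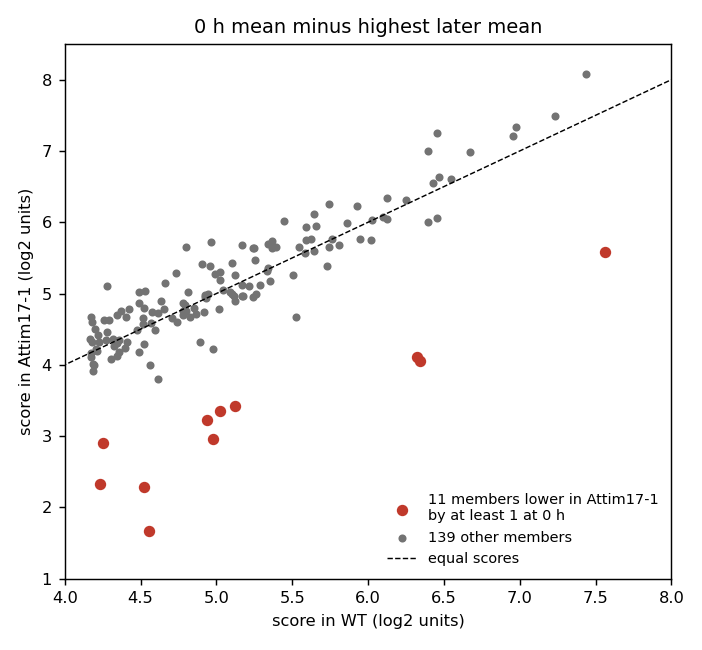
Score of each of the 150 members in WT (horizontal) and *Attim17-1* (vertical), in log2 units, with the line of equal scores dashed. The 11 red points are members whose dry-seed level was at least 1 log2 unit lower in *Attim17-1*; they lie below the line, while the 139 others lie along it.

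Among members with an annotated gene, *AT5G39520* had the highest score in *Attim17-1*, 8.08. Its intensities in *Attim17-1* were 7435, 7358 and 6664 at 0 h and 12.4, 8.2 and 11.2 at 48 h S, while WT arrays had 7157, 7440 and 6844 at 0 h and 21.3, 28.9 and 26.0 at 48 h S. The genotypes overlapped in dry seed, and after stratification every *Attim17-1* array was below every WT array. The fall in *Attim17-1* was 8.08 ± 0.06 log2 units (SE, n = 3 arrays per group, limma adjusted p = 2.64e-23). *AT2G34740*, a member of the PP2C family of protein phosphatases whose relatives act in abscisic acid signalling, came next. It measured 4360, 5289 and 4639 units in dry *Attim17-1* seed and 4280, 4629 and 4377 in dry WT seed, and was at or below 15.3 units in every array after 0 h. *AT2G25625* measured 1884, 2045 and 2048 units in dry *Attim17-1* seed and 1495, 2395 and 1903 in dry WT seed, and lay between 4.1 and 4.6 in every later array. Neither later step passed the test for it in *Attim17-1* (-0.02 ± 0.10 each, adjusted p = 0.923 and 0.916).

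The LEA and dehydrin list had 34 measured genes, and 3 of them were members. *AT2G18340*, an LEA-domain gene, measured 7904, 8090 and 8379 in dry *Attim17-1* seed and 8065, 9359 and 7522 in dry WT seed. After stratification it measured 67.7, 56.0 and 75.8 in *Attim17-1*, against 79.9, 74.7 and 79.3 in WT. Its level fell by 6.63 ± 0.10 log2 units in *Attim17-1* (adjusted p = 6.96e-20), and it was among the few members that then rose between 6 h SL and 24 h SL, by 0.49 ± 0.10 (adjusted p = 0.000291). *AT3G22490*, of the seed maturation protein family, had 13102, 13078 and 13920 units in dry *Attim17-1* seed and 12870, 12847 and 12875 in dry WT seed. At 48 h S it was 77.8, 59.6 and 80.5 in *Attim17-1* and 143, 116 and 135 in WT, with no overlap. It kept falling in *Attim17-1*, with changes of -0.83 ± 0.20 between 48 h S and 6 h SL and -1.18 ± 0.20 between 6 h SL and 24 h SL (adjusted p = 0.00218 and 6.09e-05).

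*AT2G42560*, another LEA-domain gene, ran down more slowly. In *Attim17-1* it measured 14622, 15134 and 15319 at 0 h, 641, 549 and 631 at 48 h S, 220, 252 and 206 at 6 h SL and 32.2, 11.7 and 26.3 at 24 h SL. The matching WT values were 16366, 14111 and 15021, then 807, 788 and 868, then 160, 206 and 172, and lastly 11.8, 11 and 15.6. Each step down in *Attim17-1* passed the test, with changes of -4.60 ± 0.15, -1.36 ± 0.15 and -2.65 ± 0.15 log2 units. The storage protein member *AT1G03890*, a cruciferin-like globulin, had 6618, 5985 and 7150 units in dry *Attim17-1* seed and 6356, 7326 and 7155 in dry WT seed. Its largest later loss in *Attim17-1* came after 6 h of light, a change of -2.25 ± 0.21 log2 units to 24 h SL (adjusted p = 4.69e-08), while its change between 48 h S and 6 h SL did not pass (-0.52 ± 0.21, adjusted p = 0.0601).

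Over the whole LEA and dehydrin list, 23 of 34 measured genes fell and 3 rose between 0 h and 48 h S in *Attim17-1*, with a median of -1.40 log2 units. All 6 measured genes of the storage and oil body list fell, with a median of -2.62. The background was 32.9% of all probe sets called lower and 26.8% called higher, with a median of -0.02. Between 48 h S and 6 h SL the LEA and dehydrin list had 17 lower and 5 higher, and the storage list 4 lower and 1 higher, against 19.2% of all probe sets lower and 18.9% higher. Between 6 h SL and 24 h SL the counts were 13 lower and 8 higher of 34, and 4 lower and 0 higher of 6, against 22.5% lower and 20.7% higher. Summed over its 34 measured genes, the LEA and dehydrin list gave 490035 to 506030 units in dry *Attim17-1* seed and 501825 to 520630 in dry WT seed. At 48 h S the sums were 174694 to 184368 in *Attim17-1* and 206087 to 206971 in WT, and in the light the order was turned, with 119081 to 133554 in *Attim17-1* and 100252 to 112791 in WT at 6 h SL and 99234 to 109040 in *Attim17-1* and 78040 to 95508 in WT at 24 h SL. The arrays of the genotypes overlapped in these sums at 0 h alone. Single list genes differed from the sum: 4 list genes that are not members, *COR47*, *AT1G54410*, *DI21* and *AT3G02480*, were below WT without overlap in dry *Attim17-1* seed, with differences of -1.95, -1.85, -0.82 and -0.08 log2 units. Against these, 1 list gene was higher without overlap, and over all probe sets 6.41% were lower and 6.28% higher without overlap. *COR47* was dim in dry *Attim17-1* seed, with 4.85, 20.6 and 42.2 units.

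Genes for chaperones and co-chaperones are described together here, although only 3 of them are on the heat shock list and the grouping was made after their values were seen. *AT1G52560*, encoding a small heat shock protein, measured 7555, 8212 and 9066 at 0 h, 20.5, 22.7 and 29.0 at 48 h S, 187, 119 and 115 at 6 h SL and 7.83, 8.16 and 9.45 at 24 h SL in *Attim17-1*. WT arrays had 7806, 8115 and 8579, then 32.7, 30.3 and 29.5, then 113, 115 and 103, and lastly 7.8, 6.9 and 6.1. In *Attim17-1* it rose by 1.94 ± 0.12 log2 units between 48 h S and 6 h SL (adjusted p = 4.31e-10), the largest rise of any member in that step, and fell by 2.65 ± 0.12 by 24 h SL (adjusted p = 3.03e-12). All 6 h SL arrays lay above all 48 h S and 24 h SL arrays in both genotypes, yet far below dry seed.

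Other chaperone members shared that course to differing degrees. The small heat shock gene *AT1G54050* rose by 0.87 ± 0.09 in *Attim17-1* between 48 h S and 6 h SL and then fell by 1.61 ± 0.09 (adjusted p = 2.26e-07 and 3.57e-11). *AT2G20560*, which encodes a DnaJ-domain co-chaperone, had 6803, 5741 and 6009 units in dry *Attim17-1* seed and 4380, 6333 and 6421 in dry WT seed, and it rose by 1.25 ± 0.15 and then fell by 1.82 ± 0.15 in *Attim17-1*. *AT1G71000*, also of the DnaJ-domain type, reached 52.6, 28.6 and 22.5 units at 6 h SL in *Attim17-1*, against 7.5, 6.9 and 5.9 at 48 h S, a rise of 1.11 ± 0.15 (adjusted p = 1e-05). *Hop3*, encoding a co-chaperone that links HSP70 with HSP90 and picked out after its values were seen, rose by 1.05 ± 0.09 and fell by 0.86 ± 0.09. The exception among the named small heat shock genes was *AT1G53540*, which fell in both steps in *Attim17-1*, with changes of -0.82 ± 0.11 and -1.88 ± 0.11 (adjusted p = 8.79e-06 and 1.22e-10).

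Of 11 measured genes on the heat shock list, 3 of them members, 10 fell between 0 h and 48 h S in *Attim17-1*, with a median of -4.57 log2 units. Between 48 h S and 6 h SL, 7 rose and 2 fell, with a median of 0.87, where 18.9% of all probe sets were called higher and 19.2% lower. Between 6 h SL and 24 h SL, 10 fell, with a median of -1.46, against a background of 22.5% called lower.

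**Figure D3:**
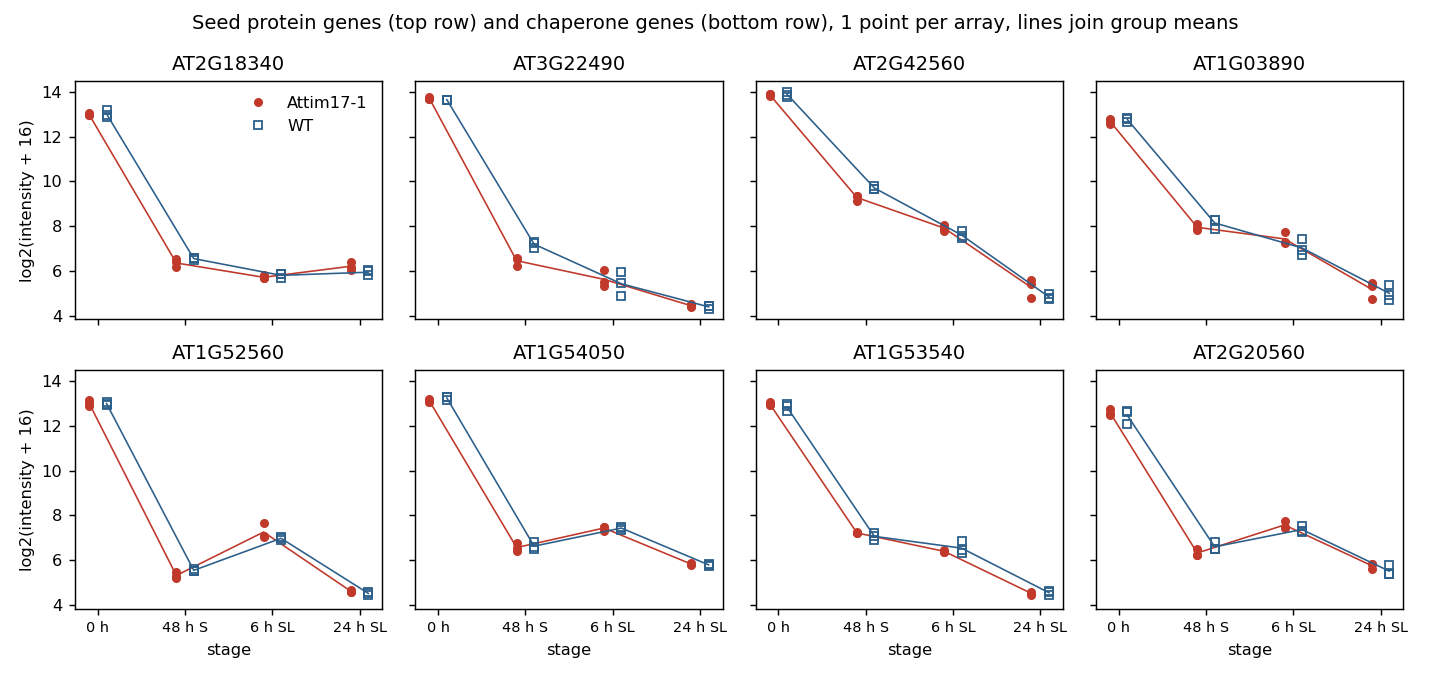
Level of 4 seed protein genes (top) and 4 chaperone genes (bottom) as log2(intensity + 16) at each stage, with a point per array (red circles *Attim17-1*, blue squares WT) and lines through group means. The seed protein genes are highest at 0 h and have no 6 h SL peak, whereas *AT1G52560*, *AT1G54050* and *AT2G20560* show a small second rise at 6 h SL and *AT1G53540* does not.

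**Figure D4:**
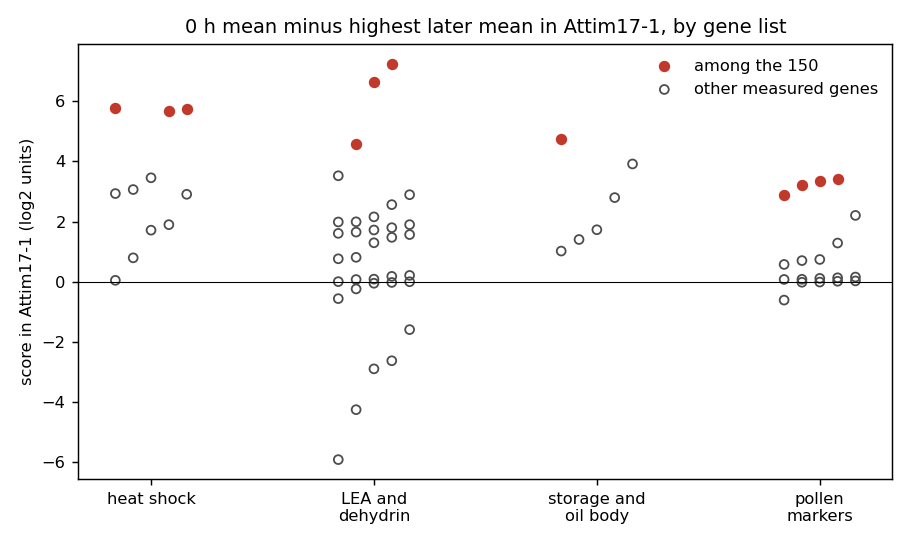
Score in *Attim17-1* (0 h mean minus highest later mean, log2 units) of every measured gene of the heat shock, LEA and dehydrin, storage and oil body, and pollen lists; filled red points are members. Members are the highest points of each list, the 4 pollen members stay under 4, and some LEA genes lie below 0, being higher at a later stage than in dry seed.

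Regulators were represented by transcription factors and signalling proteins. *STZ*, a zinc-finger repressor known for rapid induction by cold, salt and light stress, was the only measured gene of the list of rapid stress transcription factors. It had 2295, 2373 and 2643 units in dry *Attim17-1* seed and 2703, 2509 and 2449 in dry WT seed. At 48 h S it had 26.4, 39.0 and 33.1 in *Attim17-1* and 43.2, 48.7 and 43.4 in WT. Its level was at or below 13.9 units in every array of both light stages, and its changes in *Attim17-1* were -5.66 ± 0.09 log2 units to 48 h S and a further -1.01 ± 0.09 to 6 h SL.

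Further regulators were chosen after their values were seen. *AT1G75490* and *AT5G18450* encode DREB2-type factors of the AP2/ERF family, which bind dehydration response elements. *AT1G75490* had 6010, 5213 and 5188 units in dry *Attim17-1* seed and 5153, 5617 and 5269 in dry WT seed, and it fell by 5.73 ± 0.10 log2 units to 48 h S in *Attim17-1*. For *AT5G18450* the dry-seed values were 7351, 7652 and 7261 in *Attim17-1* and 7574, 7105 and 7172 in WT, with a change of -4.87 ± 0.10 in *Attim17-1*. The PLATZ-type zinc-binding factor *AT1G76590* fell by 4.34 ± 0.10, and the PP2C-family phosphatase *AT3G62260* fell by 5.31 ± 0.08. *AT1G26800*, a RING-type protein, fell by 5.34 ± 0.11 and then regained 1.10 ± 0.11 between 48 h S and 6 h SL (adjusted p = 2.18e-07).

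*AT1G08170* encodes a histone H2B, a chromatin protein, and was among the clearest genes that kept falling. It measured 11676, 12348 and 10987 at 0 h, 172, 157 and 164 at 48 h S, 36.6, 31.2 and 24.3 at 6 h SL and 10.7, 13.9 and 6.5 at 24 h SL in *Attim17-1*. In WT it measured 12592, 11304 and 11556, then 256, 260 and 248, then 24.3, 37.5 and 31.8, and lastly 9.5, 5.4 and 7.1. At 48 h S every *Attim17-1* array was below every WT array. Changes of -6.02 ± 0.11, -1.96 ± 0.11 and -0.83 ± 0.11 log2 units in successive steps all passed in *Attim17-1*.

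The most abundant named members in dry seed included *AT3G15280*, *AT3G21380*, *AT1G05340*, *AT2G42560*, *AT1G29680* and *AT3G22490*. *AT3G21380*, of the jacalin-like lectin family, had 16090, 16088 and 17015 units in dry *Attim17-1* seed and 15052, 16026 and 16349 in dry WT seed. It measured 247, 234 and 254 at 48 h S, 730, 601 and 560 at 6 h SL and 146, 159 and 180 at 24 h SL in *Attim17-1*. WT had 328, 323 and 292, then 243, 470 and 303, then 82.9, 101 and 107. In both light stages every *Attim17-1* array was above every WT array, and the step between 48 h S and 6 h SL in *Attim17-1* was a rise of 1.30 ± 0.16 (adjusted p = 2.08e-06). *AT1G05340*, which encodes a small cysteine-rich membrane-associated protein, instead fell at every step in *Attim17-1*, with changes of -5.64 ± 0.13, -1.28 ± 0.13 and -2.05 ± 0.13 log2 units. *AT3G15280* stopped falling after 6 h of light, where it stood between 188 and 250 units in *Attim17-1*, against 219 to 237 at 24 h SL (0.10 ± 0.10, adjusted p = 0.454).

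Transport, metabolism and turnover genes were also present. *AT5G17850*, a member of the cation/calcium exchanger family, had 6172, 6035 and 6186 units in dry *Attim17-1* seed and 5606, 5186 and 6198 in dry WT seed, and fell by 6.78 ± 0.11 log2 units to 48 h S in *Attim17-1*. *ATG8H*, an autophagy gene whose product coats forming autophagosomes, fell by 5.68 ± 0.16 and then changed by -0.23 ± 0.16 and -0.10 ± 0.16 in the next steps, which did not pass. *UGT85A5* and *AT5G65550* encode UDP-glycosyltransferases, enzymes that attach sugars to small molecules. *AT5G65550* fell by 5.42 ± 0.09, rose by 0.46 ± 0.09 and fell by 2.72 ± 0.09 in successive steps in *Attim17-1*. *UGT85A5* changed by -5.45 ± 0.12, 0.48 ± 0.12 and -0.81 ± 0.12 in the same steps, each of which passed. *ATG8H* and *UGT85A5* were picked out after their values were seen.

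After the common first fall, the members diverged. Between 48 h S and 6 h SL in *Attim17-1*, 54 members fell further (background 19.2%) and 32 rose (18.9%), with a median change of -0.12 and a range of -2.64 to 1.94 log2 units. Between 6 h SL and 24 h SL, 80 fell (22.5%) and 18 rose (20.7%), with a median of -0.30 and a range of -4.39 to 1.04. Falling in both steps was the course of 36 members, against 9.06% of all probe sets. Rising and then falling was the course of 24 members, against 5.34%, and 36 passed the test in neither step, against 44.7%. Only 4 members rose in both steps, against 8.51%.

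Among genes that fell strongly in the first light step were *AT5G05220* (-1.64 ± 0.10), *AT1G31750* (-1.50 ± 0.13) and *AT5G54000* (-1.38 ± 0.11), the last encoding an oxygenase of the 2-oxoglutarate and iron-dependent class. *AT1G23070*, which carries a DUF300 domain, rose by 1.54 ± 0.15 in that step. It measured 703, 684 and 621 units at 6 h SL in *Attim17-1*, against 220, 260 and 182 at 48 h S. *AT2G42950* rose by 1.53 ± 0.14, and *AT2G14520* by 0.94 ± 0.15. Genes that rose between 6 h SL and 24 h SL did so to a small part of their dry-seed level. *AT4G11570*, a HAD-type hydrolase, reached 329, 295 and 370 units in *Attim17-1* at 24 h SL, against 159, 163 and 175 at 6 h SL and 6760, 7258 and 7304 in dry seed. That rise was 0.93 ± 0.08 log2 units (adjusted p = 1.33e-08). *AT5G42690* rose by 0.94 ± 0.14 and *AT1G17430* by 0.77 ± 0.18 over the same step. *AT1G17010*, an oxygenase of the same class as *AT5G54000*, rose in both steps, by 0.75 ± 0.12 and 0.80 ± 0.12.

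Differences between the genotypes are given as a description without a test, because the choice of members fixed WT to be high at 0 h and low later. In dry seed the median *Attim17-1* minus WT difference over the 150 members was 0.01 log2 units. For 139 members the difference lay between -0.46 and 0.30. The remaining 11 lay apart, between -2.73 and -1.34, with a median of -1.82, whereas 0.615% of all probe sets were lower by at least 1 log2 unit. In each of the 11, every dry *Attim17-1* array was below every dry WT array. No member was at least 1 log2 unit higher in dry *Attim17-1* seed, and 0.0132% of all probe sets were.

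The 4 genes among these 11 with a single annotation are all on the list of pollen markers, which was drawn up with earlier results of these data known. *AT3G07820*, an exopolygalacturonase that acts on pectin in pollen, had 197, 194 and 277 units in dry *Attim17-1* seed, against 651, 801 and 788 in dry WT seed. *AT5G45880*, of the pollen Ole e 1 family of secreted proteins, had 211, 177 and 227 units in *Attim17-1*, against 543, 682 and 816 in WT. *AT3G01270*, a pectate lyase family gene, had 197, 149 and 256 units in *Attim17-1*, against 434, 752 and 827 in WT. *AT3G28750* had 194, 79.0 and 189 units in *Attim17-1*, against 309, 533 and 353 in WT. In all 4 genes the lowest WT array exceeded the highest *Attim17-1* array.

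Of the other 7 probe sets, 2 had several annotated genes and 5 were not listed. Probe set 265007_s_at, which had the highest WT score of all, measured 1783, 1005 and 1845 units in dry *Attim17-1* seed, against 3736, 5323 and 5064 in dry WT seed. The widest gap was that of 252291_s_at, with 22.5, 112 and 214 units in *Attim17-1* and 730, 733 and 581 in WT. Summed over the 11, dry *Attim17-1* arrays had 3661, 3123 and 4611 units and dry WT arrays had 11738, 14353 and 13817.

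The 11 were at low levels after imbibition in both genotypes. Their sums at 48 h S were 86.7, 171 and 77.3 in *Attim17-1* and 73.8, 73.2 and 81.6 in WT. Replicate 2 of *Attim17-1* stood above the rest at that stage. In that array 265007_s_at, 266750_s_at and 258645_s_at had 32.5, 37.4 and 32.6 units, while no other 48 h S array of either genotype exceeded 9.8 in these probe sets. All 11 still fell between 0 h and 48 h S in *Attim17-1*. The change was smallest for 252291_s_at, at -1.67 ± 0.38 log2 units (adjusted p = 0.000839), and largest for 265007_s_at, at -5.59 ± 0.22 (adjusted p = 6.3e-14).

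**Figure D5:**
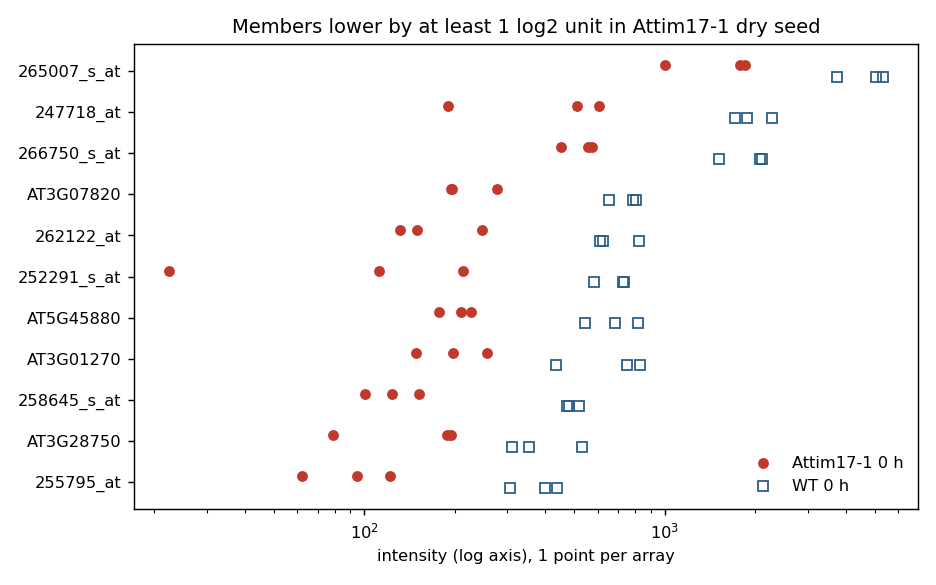
Intensity (log axis) in the 3 dry *Attim17-1* arrays (red circles) and 3 dry WT arrays (blue squares) for the 11 members at least 1 log2 unit lower in *Attim17-1*. In each of the 11 the red points lie left of the blue ones, and replicate spread is widest for 252291_s_at, with 22.5 to 214 units in *Attim17-1*.

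All 19 measured pollen markers of 46 listed were lower on average in dry *Attim17-1* than in dry WT seed, with a median difference of -1.27 log2 units, and 13 had no overlap between the genotypes' arrays. The 19 include the 4 members described above, which the rule chose for high WT dry-seed levels, with WT means of 747, 680, 671 and 399 units. These counts and the sums below are therefore not separate from the members. Among the markers that are not members, differences ranged between -1.90 (*AT3G62710*) and -0.0005 (*AT3G07840*). Some of these gaps were slight and at low levels. *AT3G07840* had means of 3.34 units in dry *Attim17-1* seed and 3.35 in dry WT seed, *AT1G23240* had 3.65 and 3.80, and *AT4G33970* had 8.46 and 9.95. The background for lower values without overlap was 6.41% of all probe sets. The summed intensity of the 19 ranged over 1008 to 1533 units in dry *Attim17-1* seed and 2928 to 4006 in dry WT seed, and over 150 to 179 in *Attim17-1* and 143 to 155 in WT at 48 h S. At 6 h SL the sums were 191 to 220 in *Attim17-1* and 169 to 227 in WT, and at 24 h SL they were 387 to 481 in *Attim17-1* and 292 to 349 in WT. The later sums rest on *AT2G15880*, which measured 379, 390 and 296 units at 24 h SL in *Attim17-1* and 237, 199 and 259 in WT. Without it the other 18 markers summed to 789 to 1306 in dry *Attim17-1* seed and 2696 to 3733 in dry WT seed, and to 90.6 to 91.9 in *Attim17-1* and 90.2 to 92.1 in WT at 24 h SL. Between 0 h and 48 h S in *Attim17-1*, 11 of the 19 fell and 0 rose, against 32.9% of all probe sets called lower and 26.8% called higher. Markers already at low levels in dry seed had little room to fall. None of the 19 was listed at 0, which does not show that each was detected, since no detection calls came with the values. The 3 measured tapetum and pollen coat markers of 14 listed summed to 17.2 to 19.1 units in dry *Attim17-1* seed and 18.5 to 19.9 in dry WT seed. The 4 measured seed coat markers of 16 listed summed to 971 to 1117 units in dry *Attim17-1* seed and 932 to 1198 in dry WT seed. Almost all of that sum came from *ARA12*, with means of 1029 units in dry *Attim17-1* seed and 1001 in dry WT seed. The others, *BAN*, *DFR* and *AT3G50990*, had dry-seed means between 5.29 and 8.72 units, so the sum does not compare the seed coat markers as a set. Between 0 h and 48 h S in *Attim17-1*, no measured tapetum or senescence marker passed the test, against the same background shares. In that step 1 seed coat marker, *ARA12*, rose and 1 of 2 green tissue markers fell. In whole-seed samples fewer cells or grains of a kind and less RNA in each cannot be told apart, and the part of any other material in these differences was not tested.

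The gene *cox2* codes for a subunit of cytochrome c oxidase in the mitochondrial genome. After the pollen genes, it had the most negative *Attim17-1* minus WT difference in dry seed among named members. Its dry-seed intensities were 4045, 4556 and 4330 in *Attim17-1* and 5649, 5638 and 5176 in WT, a difference of -0.35 log2 units. The differences at 48 h S, 6 h SL and 24 h SL were -0.17, -0.51 and -0.30 log2 units. At all 4 stages every *Attim17-1* array was below every WT array. In *Attim17-1* its level changed by -4.18 ± 0.07 log2 units to 48 h S, then by -0.50 ± 0.07 and -1.64 ± 0.07 (adjusted p = 6.74e-19, 1.77e-05 and 2.02e-12).

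At the upper end of the dry-seed differences, *AT4G23493* had 476, 480 and 618 units in *Attim17-1*, against 375, 471 and 424 in WT, and *AT5G18130* had 3999, 4372 and 4116 in *Attim17-1*, against 2825, 3825 and 3653 in WT. The differences were 0.30 and 0.29 log2 units, and in both genes the arrays did not overlap. Apart from the 11, lower and higher members were about as common as elsewhere: 20 members, the 11 included, were lower without overlap (background 6.41%) and 11 were higher without overlap (6.28%).

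After stratification the balance leaned one way. At 48 h S, 56 members were lower in *Attim17-1* with no overlap of arrays (background 9.99%) and 0 were higher (8.64%), with a median difference of -0.14 log2 units and a range of -0.88 to 0.39. In the light it leaned the other way: 35 members were higher and 2 lower at 6 h SL (6.72% and 8.22%), and 35 were higher and 8 lower at 24 h SL (8.58% and 7.83%), with median differences of 0.10 and 0.02. The member differences ranged between -0.51 and 0.91 at 6 h SL and between -0.54 and 0.71 at 24 h SL. Among the seed protein and chromatin genes described above, *AT3G22490* differed by -0.74 and *AT1G08170* by -0.59 at 48 h S. The DREB2-type factor *AT5G18450* was higher in *Attim17-1* by 0.47 at 6 h SL and by 0.71 at 24 h SL, the upper end of the member range at that stage.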

How the data were processed

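Total RNA from whole seed was labelled with biotin and hybridised to Affymetrix arrays of 1 colour, per the labels. The authors deposited linear intensity values for 24 arrays. The submitters' processing notes name MAS5, RMA and Partek without versions or roles, and no detection calls came with the values. The values were used as deposited, after adding 16 and taking log2; this offset shrinks the fold changes of dim probe sets.

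The limma package (3.58.1, run under R 4.3.3, with data.table in version 1.17.8 for reading) was used to fit 8 group means over 24 arrays (16 residual degrees of freedom) with empirical Bayes moderation. P-values were adjusted by Benjamini-Hochberg over 22746 probe sets and called under 0.05; all adjusted p-values are limma's. The 64 control probe sets were left out. An exact permutation of 3 against 3 arrays cannot go below p = 0.1 and was not used. Samples were grouped by title. Alternatives were offsets of 1 and 64, a mean intensity of at least 64, cyclic loess, a replicate block, *Attim17-1* arrays alone, array weights and leaving out single arrays.

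The members, the 15 gene lists (266 genes) and the rules were chosen with earlier results of these data known. Genes were named from members with 1 annotated gene by 7 criteria: the 15 highest scores, membership of a list, the 3 just inside the limit, the 6 highest WT dry-seed levels, the 6 lowest and 6 highest genotype differences at 0 h, the 6 smallest falls in *Attim17-1*, and the 5 largest called changes each way in the later *Attim17-1* steps. An eighth criterion, product words, could be applied only to gene synonyms and added *STZ*. Names came from the platform annotation and an assembly list (TAIR10.1), in which 13436 of 13513 probe sets with 1 gene were found. The senescence list (3 measured genes) and the green tissue list (2) held no member. The lists for endosperm, abscisic acid and dormancy, drought, raffinose, antioxidants and jasmonate had 0 genes measured by a single-gene probe set and were not analysed here. Promoter motifs were not searched. Replicate numbers were not treated as pairs in the main fit, and deviations of the 84 same-numbered pairs correlated between -0.26 and 0.17. That range cannot show whether same-numbered samples shared a seed lot or a processing day.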

Additional observations from a re-analysis of the deposited data

Results flagged for a closer look

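*AT5G18130* moved differently in the genotypes between 48 h S and 6 h SL. In *Attim17-1* it had 85.5, 79.8 and 79.8 units at 6 h SL, against 76.8, 78.9 and 71.5 at 48 h S, a change of 0.092 log2 units that did not pass (limma adjusted p = 0.595). In WT it had 50.6, 74.5 and 49.1 units at 6 h SL, against 97.5, 96.1 and 101 at 48 h S, a change of -0.64. In *Attim17-1* each 6 h SL array lay above each 48 h S array, and in WT each lay below; the difference between the genotypes was not tested.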

How the results depend on the processing

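The counts of members kept their direction, and stayed within 1.5 times of the reported value, under every alternative run. All 150 members were called lower than 0 h at all 3 later stages in *Attim17-1* under each setting except the mean filter, which left 149 to test. Between 48 h S and 6 h SL the number called lower was 53 to 67 over the alternatives that kept all arrays and 48 to 56 without single arrays, and the number called higher was 30 to 36 and 29 to 32. Between 6 h SL and 24 h SL these were 73 to 82 and 74 to 79 for lower, and 15 to 23 and 16 to 18 for higher. With the replicate block the counts were 54 lower and 31 higher in the first of these steps and 78 and 17 in the second; it changed no call of a named gene. The rule itself depended more on the offset: 112 members were kept with an offset of 1, 123 with 64, 145 with cyclic loess and 145 to 150 without single arrays. Members shared with the *Attim17-1* list numbered 119 to 136, and 132 to 135 without single arrays. The median dry-seed difference moved from 0.0066 to -0.0346 with cyclic loess and lay between -0.0049 and 0.0282 without single arrays. The count of members lower by at least 1 log2 unit in dry *Attim17-1* seed, recomputed under alternatives chosen after seeing the data, was 10 to 11. Of 1352 recomputed values of named genes, 1347 kept their call and 0 reversed. The size of later changes depended on the offset: with an offset of 64, 7 of 44 named changes between 0 h and 48 h S, 11 of 28 between 48 h S and 6 h SL and 25 of 32 between 6 h SL and 24 h SL moved by over 1.5 times, and with an offset of 1 these were 1, 4 and 12. Between 6 h SL and 24 h SL, *AT1G53540* changed by -3.14 with an offset of 1 and -0.90 with 64, and *AT3G22490* by -2.32 and -0.49; the rise of *AT1G52560* at 6 h SL was 1.20 with 64. The lost calls were *AT5G39520* and *AT5G04010* between 48 h S and 6 h SL and *AT2G34740* and *AT3G48510* between 6 h SL and 24 h SL with an offset of 64, and *AT5G04010* without replicate 1 of *Attim17-1* at 6 h SL (0.21); the cause was not tested. Weak levels after 0 h limit what later steps can show, since no background measure came with the values.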
